A study of Homo sapiens with 3 samples.

Results

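GANT61 and cyclopamine, small molecules that inhibit Hedgehog (Hh) signaling at different steps, were compared directly at the same dose and time in HCC-LM3, an established line of human hepatocellular carcinoma (HCC) cells that grow attached and are labelled as epithelial. One culture was incubated with GANT61 (20 μM, 48 h), one with cyclopamine (20 μM, 48 h) and one with the vehicle DMSO (48 h), and RNA of each was read on its own array of the Illumina HumanHT-12 v4 BeadChip, which gives 2 arrays for the comparison of 3 in the series. The compared genes are those with a signal intensity above 63.75 on the GANT61 array, the cyclopamine array or both, which held for 10148 of the 20044 genes with a named probe. The limit is 1.5 times the most common intensity of an array (42.5), where the many probes without a transcript lie. Each gene is given by its brightest probe, and a difference is the log2 signal with GANT61 minus the log2 signal with cyclopamine. The DMSO array takes no part in this difference and is given only as a further level. Since every condition rests on a single array (n = 1), differences could not be checked against replicates, no p-value is given, and the compound, the culture and the array cannot be told apart.

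Without ligand, Patched keeps the membrane protein Smoothened (SMO) silent. Once a secreted Hh protein occupies Patched, SMO gathers in the primary cilium of vertebrate cells, and full-length Gli proteins then switch on their target genes. Cyclopamine, a plant steroidal alkaloid, binds and blocks SMO. GANT61 was found in a screen for compounds that reduce Gli-driven transcription and acts on Gli1 and Gli2, downstream of SMO. The molecules are not analogs of each other, so no single structural change separates them, and 1 pair of compounds was compared.

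The arrays were evenly scaled: the medians were 47.65 with GANT61, 47.64 with cyclopamine and 47.66 with DMSO. Values of equal rank on the GANT61 and cyclopamine arrays were within 0.878% of each other. The median log2 difference between GANT61 and cyclopamine was 0.02, 78.0% of the genes were within 1.5-fold, and 90% lay between −0.87 and 0.78. Of 8 HCC markers with a named probe, 4 were above the limit. These were the epithelial keratins KRT18, at 239.0 with GANT61, 181.5 with cyclopamine and 182.6 with DMSO, and KRT8, at 285.7, 335.2 and 1423, the adhesion molecule EPCAM, at 403.2, 387.1 and 401.5, and albumin (ALB), near the limit at 80.0, 70.4 and 69.6. AFP and GPC3, fetal liver proteins that many HCCs make, were not above it on either treated array. Nor were the epithelial markers KRT19, at 42.8 with GANT61, 40.1 with cyclopamine and 50.4 with DMSO, and CDH1, at 38.1, 49.3 and 51.3. Of markers of other cells, 1 of 9 fibroblast genes (COL1A1), 0 of 8 endothelial genes and 1 of 9 immune genes (CD68) were above the limit.

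With GANT61, 245 genes (2.41% of the 10148) were at least 2-fold higher than with cyclopamine and 354 (3.49%) were at least 2-fold lower. The counts in gene lists below are to be set beside these shares of all genes. The genes higher with GANT61 were led by SERPINE2, IL11, EGR1 and SPINK1, and those lower by SORBS2, TNNC1, PPP2R2B and CCN5. Differences of at least 4-fold were seen for 28 higher and 18 lower genes, and of at least 8-fold for 8 higher genes and 1 lower gene. Of the 245 higher genes, 21 were under the limit with cyclopamine, and of the 354 lower genes, 35 were under it with GANT61. A ratio for such a gene is only a bound, given as "at least". All these counts use the signals as measured, dim ones included. With dim values raised to the limit, 235 genes were at least 2-fold higher and 333 lower. Of the genes counted at 8-fold, AMHR2, IL24 and SORBS2 have bounds of only 6.03-fold, 5.48-fold and 6.86-fold. Among the lower genes counted at 4-fold, USH1C has a bound of 3.98-fold. At the edge of the 2-fold rule HROB, at 684.6 with GANT61 and 342.2 with cyclopamine, was counted as higher and PIWIL2, at 166.3 and 83.1, was not, and NDUFB7, at 536.1 and 1073, was counted as lower and the lncRNA HOTAIR, at 83.9 and 167.7, was not. At the edge of the intensity limit, SNORA12 entered with 63.81 and SOCS6, whose brighter value is 63.75 when rounded, did not. Each array measured RNA of a whole culture, so fewer cells with a transcript and less of it per cell cannot be told apart.

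**Figure D1:**
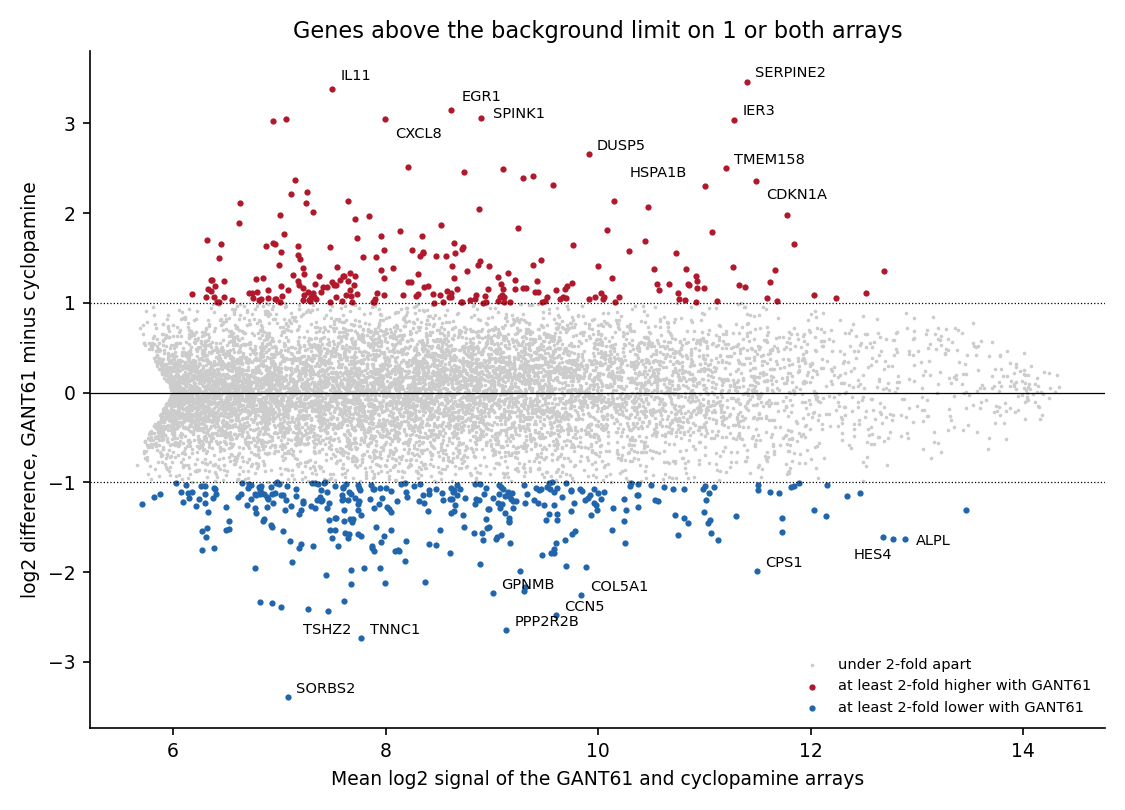
Each point is 1 of the 10148 genes. The horizontal axis is the mean log2 signal of the GANT61 and cyclopamine arrays, the vertical axis is the log2 difference GANT61 minus cyclopamine, and dotted lines mark 2-fold. The 245 genes at least 2-fold higher with GANT61 (red) and the 354 at least 2-fold lower (blue) lie at all levels of brightness, with SERPINE2 at 3.47 and SORBS2 at −3.39 as the outermost points.

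The largest difference was that of SERPINE2 (protease nexin-1), a secreted inhibitor of thrombin and urokinase, with a signal of 8979 with GANT61, 812 with cyclopamine and 895 with DMSO. This is 11.1-fold higher with GANT61 (log2 difference of 3.47), while cyclopamine and DMSO lay close together. IL11, a cytokine of the IL-6 family, had 584.6 with GANT61, 55.85 with cyclopamine and 58.76 with DMSO, both under the limit, and so was at least 9.17-fold higher. IL24, a cytokine of the IL-10 family, had 349 with GANT61 and was likewise under the limit with cyclopamine (42.9) and DMSO (48.6), at least 5.48-fold higher. AMHR2, the receptor of anti-Müllerian hormone, showed the same form, with 384 with GANT61, 46.4 with cyclopamine and 51.0 with DMSO, at least 6.03-fold higher. For IL11, IL24 and AMHR2 a signal above the limit was seen on the GANT61 array alone.

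Another form had DMSO lowest and cyclopamine above it. CXCL8 (interleukin-8), a chemokine that attracts neutrophils, had 731.7 with GANT61, 88.4 with cyclopamine and 49.05 with DMSO (8.28-fold higher with GANT61), and its other probe gave 309.0, 82.9 and 77.6. SPINK1, a trypsin inhibitor, had 1374, 164.8 and 62.6 (8.34-fold), and IRAK2, a kinase of interleukin-1 and Toll-like receptor signaling, had 709, 124 and 62.9 (5.71-fold). ISG20, an exonuclease induced by interferon, had 1543 with GANT61, 290 with cyclopamine and 120 with DMSO (5.32-fold). In these genes the signals were ordered GANT61, cyclopamine, DMSO from high to low.

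In a further form cyclopamine was the lowest of the 3 arrays. FST (follistatin), which binds and neutralizes activin, had 1305 with GANT61, 231 with cyclopamine and 492 with DMSO (5.65-fold higher with GANT61), and its other probe gave 261.5, 69.8 and 73.3. DUSP5, a nuclear phosphatase of the MAP kinase ERK, had 2424, 383 and 653 (6.33-fold), and PLEK2, a pleckstrin family protein, had 322, 62.6 (under the limit) and 124, at least 5.05-fold higher. RNA28SN5, a 28S ribosomal RNA, had 1695 with GANT61, 341 with cyclopamine and 1342 with DMSO, so that the cyclopamine array was the one that stood away. Ribosomal RNA lacks the poly(A) tail on which this kind of labelling is usually primed and has many near-identical copies, so that value is uncertain.

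Over the 245 genes higher with GANT61, DMSO lay below both treated arrays in 123, between them in 115 and above both in 7. DMSO was within 1.5-fold of cyclopamine in 170 of them (69.4%) and within 1.5-fold of GANT61 in 28 (11.4%). Over the 354 genes lower with GANT61, DMSO was above both in 118, between them in 210 and below both in 26, and it was within 1.5-fold of cyclopamine in 189 (53.4%) and of GANT61 in 100 (28.25%). The higher and lower genes were chosen by the treated arrays alone. The same shares were not worked out over all genes, so these only describe where DMSO lay.

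**Figure D2:**
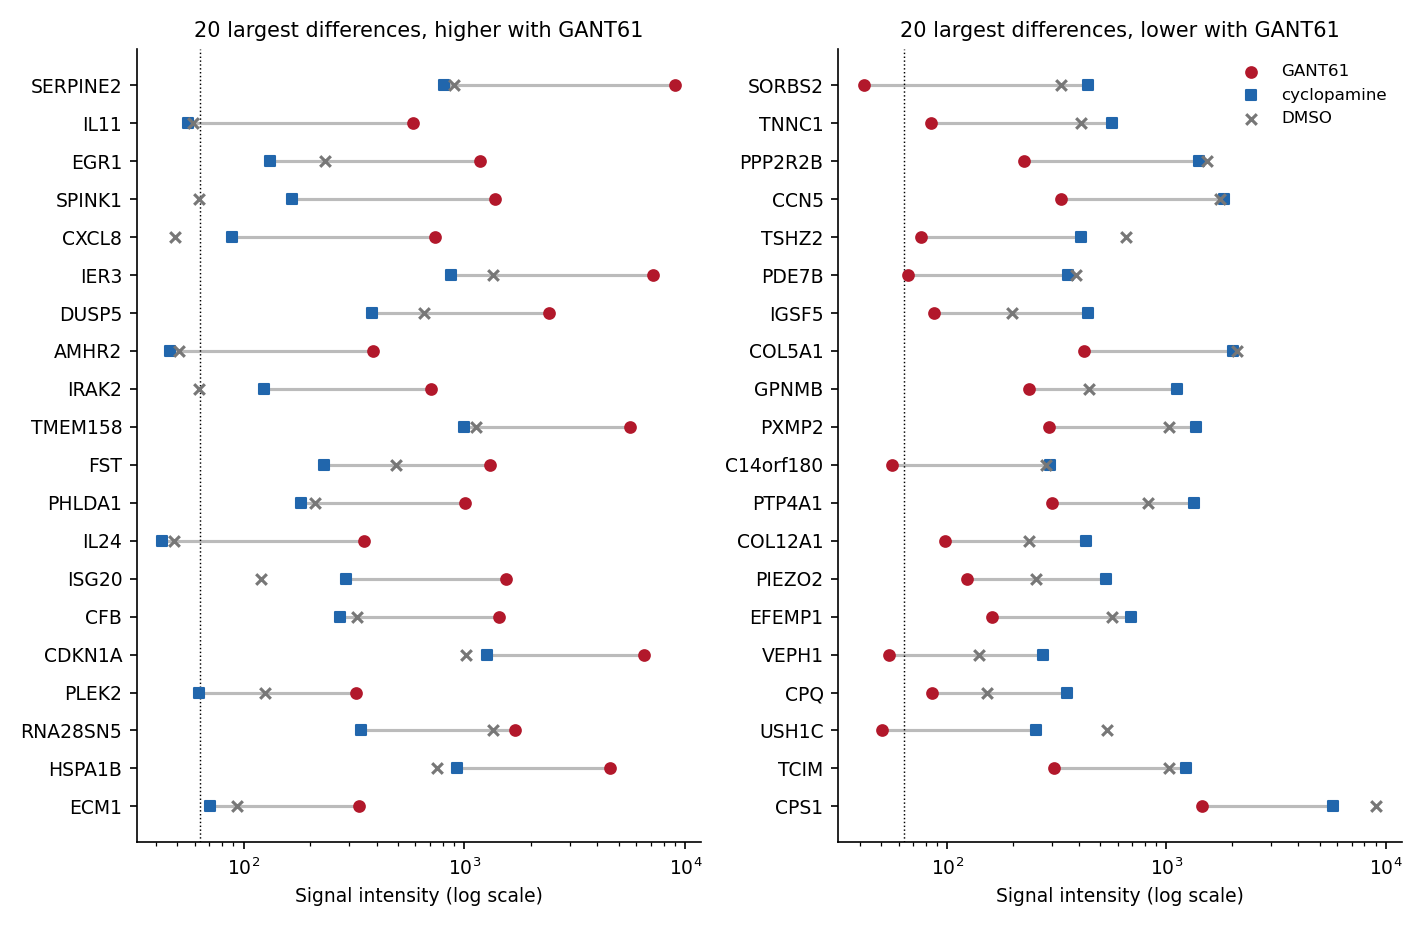
Signal intensities (log scale) of the 20 genes with the largest differences in each direction, on the GANT61 (red circles), cyclopamine (blue squares) and DMSO (grey crosses) arrays, 1 array each. The dotted line is the limit of 63.75, and the grey bars join the treated arrays. DMSO lies near cyclopamine for SERPINE2, TMEM158, PPP2R2B and COL5A1 and away from it for SPINK1, TSHZ2 and USH1C.

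Immediate early genes, which are transcribed within minutes of a growth factor or stress signal without new protein synthesis, stood higher with GANT61 as a group. Of 29 above the limit, 10 (34.5%) were at least 2-fold higher and 0 lower, beside 2.41% and 3.49% of all genes, and 24 of 29 were higher by any amount, with a median of 0.66 beside 0.02 for all genes. Of all 10148 genes, 5220 were higher and 4922 lower with GANT61 by any amount. Among the transcription factors of the list, EGR1, a zinc finger protein, had 1173 with GANT61, 131.8 with cyclopamine and 233 with DMSO (8.90-fold higher with GANT61). The AP-1 subunits FOSB and JUN had 255 and 595 with GANT61, 64.9 and 177 with cyclopamine and 54.5 and 170 with DMSO (3.93-fold and 3.36-fold), and FOSL1, another AP-1 subunit, was at least 1.99-fold higher, with 126.7 with GANT61 and 53.1 (under the limit) with cyclopamine. Not all AP-1 subunits were 2-fold apart, since FOS had 329.7 with GANT61, 226.5 with cyclopamine and 324.3 with DMSO, and JUND had 6328, 7488 and 8416.

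Among other early products, IER3, a regulator of apoptosis and ERK signaling, had 7128 with GANT61, 865 with cyclopamine and 1350 with DMSO (8.24-fold higher with GANT61). PHLDA1 had 1003, 182.5 and 209.5 (5.495-fold), although its other probe gave only 82.9, 66.2 and 59.2. PTGS2 (cyclooxygenase-2), the inducible enzyme of prostaglandin synthesis, had 1666, 626.5 and 385 (2.66-fold). MYC, a transcription factor of growth and ribosome synthesis and so not one of these other products, had 4453, 2141 and 3017 (2.08-fold). FOS and JUND were chosen after their values were seen.

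A list of genes that follow MAP kinase signaling, many of which encode feedback inhibitors of it, had 5 of 19 members (26.3%) at least 2-fold higher and 0 lower. The median was 0.60, or 0.46 with signals under the limit raised to it. They were the phosphatases DUSP5, DUSP6 and DUSP1, together with PHLDA2 and the chemokine gene CXCL8, which also stands in the cytokine list and is no inhibitor of the pathway. DUSP6, the cytosolic ERK phosphatase, had 527 with GANT61, 176 with cyclopamine and 152 with DMSO (log2 difference of 1.58). DUSP1, a nuclear phosphatase of several MAP kinases, was already bright with cyclopamine, at 4683, 2314 and 1051 (2.02-fold). The 11 Sprouty, Spred and other genes were all higher by some amount, with a median of 0.60, or 0.46 with signals under the limit raised to it. The 2 of them at least 2-fold higher were PHLDA2 and CXCL8, so no Sprouty or Spred gene reached 2-fold. DUSP16, a phosphatase that acts on JNK, went the other way without reaching 2-fold, at 99.99, 180.1 and 138.7. HBEGF, a ligand of the EGF receptor, had 302 with GANT61, 114 with cyclopamine and 245 with DMSO (2.64-fold). EGFR itself had 1963, 1399 and 1063, which is 1.40-fold.

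Several of the genes highest with GANT61 hold letters that match elements of serum and AP-1 factors close to their transcription start. The 210 bases before the start of 6 genes higher with GANT61 and of 1 lower gene (GPNMB) are printed to place these elements, from the RefSeq promoters of GRCh38.p14, read 5′ to 3′ on the strand of the gene. Capitals in EGR1 (chr5:138465269-138465478, plus strand) mark the CArG box, the element bound by serum response factor, which occurs 2 times, beginning at −105 and −83, where −1 is the last base before the start. Capitals in the others mark TGANTCA, where N is any base, searched on both strands as the AP-1 element. In the usual AP-1 consensus N is C or G. It is T in FST and A in the ECM1 match at −204, so these are looser matches. The stretches are IL11 (chr19:55370464-55370673, minus strand), CXCL8 (chr4:73740359-73740568, plus strand), FST (chr5:53480419-53480628, plus strand), ISG20 (chr15:88638806-88639015, plus strand), ECM1 (chr1:150507899-150508108, plus strand) and GPNMB (chr7:23246565-23246774, plus strand).
EGR1: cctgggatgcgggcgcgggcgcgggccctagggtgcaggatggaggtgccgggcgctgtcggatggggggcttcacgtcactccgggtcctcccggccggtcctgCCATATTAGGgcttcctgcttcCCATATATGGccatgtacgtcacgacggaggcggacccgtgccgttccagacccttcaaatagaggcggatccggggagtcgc
IL11: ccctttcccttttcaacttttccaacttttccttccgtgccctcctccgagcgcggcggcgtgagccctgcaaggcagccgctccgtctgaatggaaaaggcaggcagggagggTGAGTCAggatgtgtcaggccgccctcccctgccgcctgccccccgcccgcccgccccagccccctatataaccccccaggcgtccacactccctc
CXCL8: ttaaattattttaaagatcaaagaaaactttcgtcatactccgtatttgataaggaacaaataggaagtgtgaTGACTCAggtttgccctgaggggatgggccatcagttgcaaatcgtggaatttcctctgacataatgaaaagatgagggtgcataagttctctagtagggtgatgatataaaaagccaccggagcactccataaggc
FST: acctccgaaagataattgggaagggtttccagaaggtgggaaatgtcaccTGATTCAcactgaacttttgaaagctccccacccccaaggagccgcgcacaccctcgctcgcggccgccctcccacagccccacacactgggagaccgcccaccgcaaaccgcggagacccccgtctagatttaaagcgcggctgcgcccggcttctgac
ISG20: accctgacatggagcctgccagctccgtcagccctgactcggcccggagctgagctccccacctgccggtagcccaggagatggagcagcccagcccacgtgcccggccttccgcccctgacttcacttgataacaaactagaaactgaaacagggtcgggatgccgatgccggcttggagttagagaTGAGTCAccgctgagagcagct
ECM1: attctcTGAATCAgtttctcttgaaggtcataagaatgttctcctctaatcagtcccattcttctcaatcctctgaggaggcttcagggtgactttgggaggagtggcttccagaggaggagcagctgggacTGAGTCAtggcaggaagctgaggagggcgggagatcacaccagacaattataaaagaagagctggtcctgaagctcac
GPNMB: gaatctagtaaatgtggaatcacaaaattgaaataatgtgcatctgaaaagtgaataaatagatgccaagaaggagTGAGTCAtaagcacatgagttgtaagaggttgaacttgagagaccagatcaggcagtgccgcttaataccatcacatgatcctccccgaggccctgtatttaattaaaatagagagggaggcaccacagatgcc
The AP-1 element began at −96 in IL11, −137 in CXCL8, −160 in FST, −22 in ISG20, −134 in GPNMB, and at −204 and −78 in ECM1, which holds 2. The start that the table gives for ISG20 lies inside the annotated gene (GRCh38, chromosome 15, 88635632 to 88656483), so its stretch is not the promoter of every ISG20 transcript.

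Over whole promoter windows of 300 bases (250 before to 50 after the start), the AP-1 element was found in 22 of 190 genes higher with GANT61 that have a promoter in the table (11.6%), in 14 of 289 lower genes (4.84%), in 4.32% of the 8289 genes above the limit with a promoter and in 7.76% of all 27305 promoters. Besides the printed ones, the higher genes with the element included ITGA5, PLAUR, BAG3 and MT2A, and the lower genes with it included HPD, DDIT3, HSPA5 and GSTP1. The TATA box (TATAAA) was in 13.7% of the higher and 7.61% of the lower genes, beside 5.465% of the genes above the limit and 11.95% of all promoters, and the CArG box, searched by name, was in 2.63%, 1.73%, 1.04% and 1.29%. The Gli core CCACCCA was in 5.79% of the higher, 10.03% of the lower and 8.26% of the genes above the limit, and in 9.01% of all promoters. The ETS core CCGGAAG was in 14.2% of the higher and 11.8% of the lower genes, beside 20.4% of the genes above the limit. A match says only that these letters occur in the window.

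**Figure D3:**
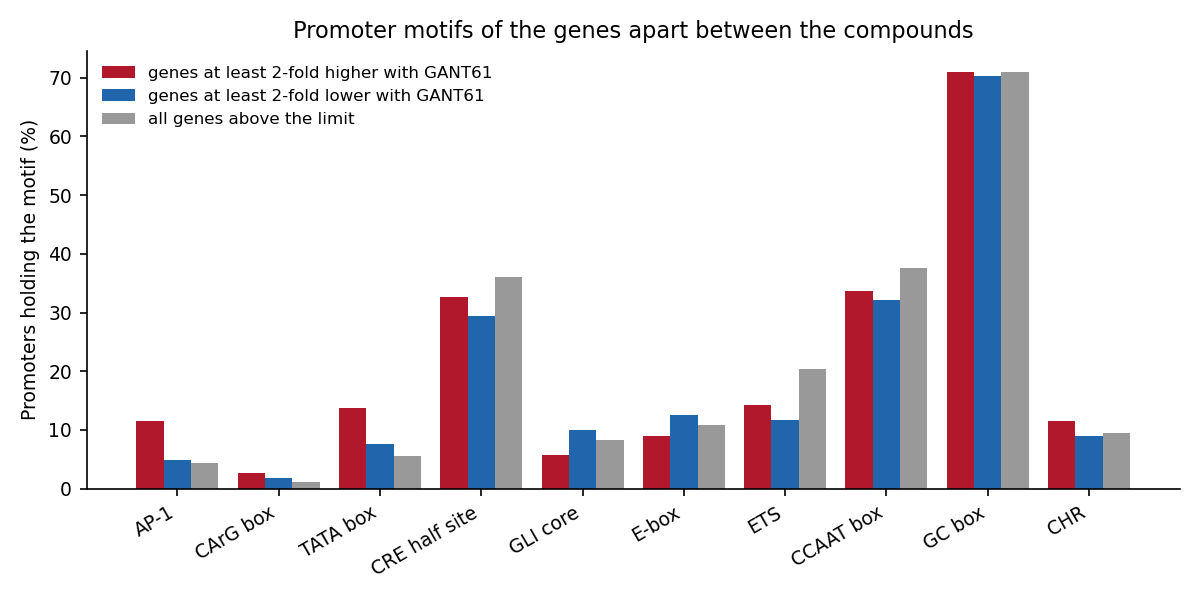
Share of promoter windows (%, vertical axis) that hold each of 10 motifs, for the 190 genes at least 2-fold higher with GANT61 (red), the 289 at least 2-fold lower (blue) and the 8289 genes above the limit (grey) that have a promoter in the table. The AP-1 bars stand at 11.6%, 4.84% and 4.32%, and the GC box bars are nearly level at 71.05%, 70.2% and 70.9%.

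For 29 genes of NF-κB and cytokines above the limit the median was 0.34. Of them 5 (17.2%) were at least 2-fold higher with GANT61 and 1 (3.45%) was lower. Besides IL11 and CXCL8 these were IL6, the acute phase cytokine, with 253.5 with GANT61, 125 with cyclopamine and 54.1 with DMSO (2.02-fold higher with GANT61), and NFKBIZ and BCL3, nuclear IκB proteins. NFKBIZ had 1455, 693 and 240 (2.10-fold), and BCL3 had 357, 165 and 219 (2.16-fold). IL1B (interleukin-1β) was lower, at 56.1 (under the limit) with GANT61, 151 with cyclopamine and 85.9 with DMSO, at least 2.375-fold. The acute phase gene CFB (complement factor B) had 1439, 273 and 328 (5.27-fold higher with GANT61). Of 28 interferon response genes, ISG20 and HERC5, a ligase of the ubiquitin-like ISG15, were at least 2-fold higher, but 18 were lower by some amount and the median was −0.25.

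Of 12 TNF receptors above the limit, 3 (25.0%) were at least 2-fold higher with GANT61 and 1 (8.33%) was lower. TNFRSF10A, a death receptor for TRAIL, had 744 with GANT61, 241 with cyclopamine and 265 with DMSO (3.085-fold higher with GANT61), TNFRSF1B, the second TNF receptor, had 295, 123 and 110 (2.39-fold), and TNFRSF12A, the receptor of TWEAK, had 1320, 567 and 586 (2.33-fold). TNFRSF14, the herpesvirus entry mediator, was 3.18-fold lower with GANT61 than with cyclopamine, at 684 and 2177, while DMSO was lowest at 161. Both compounds thus stood above DMSO for TNFRSF14, with cyclopamine the higher.

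CDKN1A (p21), an inhibitor of cyclin-dependent kinases, had a signal of 6506 with GANT61, 1264 with cyclopamine and 1015 with DMSO, 5.15-fold higher with GANT61 than with cyclopamine. Of 26 p53 target genes above the limit, AEN, a nuclease of apoptosis, at 954, 232 and 233 (4.12-fold), and TNFRSF10A were also at least 2-fold higher, 0 were lower and the median was 0.14. Other widely used p53 targets lay closer together, such as MDM2, at 91.0 with GANT61, 54.8 (under the limit) with cyclopamine and 59.0 with DMSO, and BAX, at 271, 277 and 285. Among the 7 CDK inhibitors above the limit CDKN1A alone was 2-fold apart, and CDKN1B (p27) had 324, 576 and 552. CCNE1 (cyclin E1), which acts at entry into S phase, had 645, 243 and 418 (2.66-fold).

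Of 52 G2/M genes, 46 were higher with GANT61 by some amount, 0 reached 2-fold in either direction and the median was 0.22, and of 14 mitotic kinesins 13 were higher, with a median of 0.33. KIFC1, a spindle kinesin, had 301 with GANT61, 165 with cyclopamine and 775 with DMSO, and KIF2C, which depolymerizes microtubules at kinetochores, had 525, 301 and 714. KIF20A, a kinesin of cytokinesis that the study follows, had nearly the same signal with both compounds, 329.5 with GANT61 and 317.8 with cyclopamine (1.04-fold), beside 932 with DMSO. FOXM1, a transcription factor of G2/M genes, was alike in this respect, at 215.5, 199 and 874 (1.08-fold), and its other probe gave 106.7, 127.7 and 481.7. Of 41 S phase genes, GINS3, a subunit of the replicative helicase complex, had 817, 308 and 350 (2.65-fold) and RRM2, a subunit of ribonucleotide reductase, had 219, 103 and 293 (2.13-fold), and the median was 0.28. TOP2A, a topoisomerase needed for chromosome separation, went the other way, at 1299, 2204 and 2783.

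Histone genes were lower with GANT61 in 18 of 22 members, 5 of them (22.7%) at least 2-fold, with a median of −0.35. H2AC6 had 152 with GANT61, 369 with cyclopamine and 115 with DMSO (2.435-fold lower with GANT61), and H2BC21 had 220, 485 and 605 (2.20-fold), so that DMSO was lowest for one and highest for the other. Histone genes of a class are close copies of each other, and a probe may read several of them. Many histone mRNAs also lack a poly(A) tail, so these values are uncertain.

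Of 35 Hh pathway genes and targets with a named probe, 18 were above the limit. The receptor PTCH1, at 36.5 with GANT61, 48.3 with cyclopamine and 55.9 with DMSO, SMO, at 41.2, 38.6 and 39.9, GLI1, at 39.5, 41.2 and 40.9, and the Hh binding protein HHIP, at 44.4, 40.55 and 38.1, were not, so no difference can be read for them. Of the 18 genes, 0 were at least 2-fold higher with GANT61 and 2 (11.1%) were lower, with a median of 0.02. GAS1, a membrane protein that helps receive the ligand, had 652.5 with GANT61, 1527 with cyclopamine and 1023 with DMSO (2.34-fold lower with GANT61), and its other probe gave 220, 476 and 219. BCL2, which blocks apoptosis at mitochondria, had 130, 286 and 195.5 (2.21-fold lower), and a further probe gave 95.1, 206 and 108. GLI2, the Gli factor that the study follows, was near the limit, at 74.0, 108 and 127.5 (1.45-fold lower with GANT61), and GLI3 had 78.1, 110 and 109. CCND1 (cyclin D1), a known Gli target, had 1366, 1582 and 1576. Among 29 genes of the primary cilium 0 were 2-fold higher and 3 (10.3%) lower. These were IFT27 of the intraflagellar transport complex, at 137, 296 and 298 (2.155-fold), and BBS1 and BBS9 of the BBSome, at 84.1, 175 and 291.5 and at 77.8, 161 and 151.

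Heat shock genes were higher with GANT61 in 28 of 31 members, with 4 at least 2-fold higher, 1 lower and a median of 0.58. The inducible HSP70 genes led, HSPA1B at 4573 with GANT61, 926 with cyclopamine and 751 with DMSO (4.94-fold higher with GANT61) and HSPA1A at 2384, 544 and 528 (4.38-fold). Their sequences are near-identical, so their probes may share transcripts and are not separate evidence. BAG3, a cochaperone of HSP70, had 1098, 411 and 394 (2.67-fold), and CHORDC1, a cochaperone of HSP90, had 1011, 501 and 372 (2.02-fold). CRYAB (αB-crystallin), a small heat shock protein, was 3.93-fold lower, at 103, 405 and 164. The 13 members of the HSP90 and chaperonin class had 0 genes 2-fold apart and a median of 0.35, whereas the 18 inducible members and cochaperones had a median of 0.84.

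Proteasome subunits were higher with GANT61 in 25 of 27 members, with a median of 0.39. Only PSMD12, a subunit of the 19S regulatory particle, reached 2-fold, at 2267 with GANT61, 1026 with cyclopamine and 644 with DMSO (2.21-fold). The 14 regulatory subunits had a median of 0.54 and were all higher, and the 13 core subunits had a median of 0.25, with 11 higher. The 4 metallothioneins above the limit, which bind zinc and copper, were all higher as well, with a median of 0.92, led by MT1G, at 179, 73.7 and 61.2 (2.43-fold), and MT2A, at 4838, 2050 and 1633 (2.36-fold); metallothionein genes are also close copies.

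HSPA5 (BiP), the main chaperone of the endoplasmic reticulum, had 466 with GANT61, 1110 with cyclopamine and 432 with DMSO, 2.38-fold lower with GANT61, and DDIT3 (CHOP), a transcription factor of prolonged stress, had 437, 953 and 447 (2.18-fold lower). For both the cyclopamine array was the high one and GANT61 lay near DMSO. Of 33 genes of the ATF4 response, 5 (15.15%) were at least 2-fold lower, 1 (3.03%) was higher, 23 were lower by some amount and the median was −0.32. The lowest of the 5 was ASS1, which also stands in the hepatocyte list and is given there, so these lists are not separate for it. NUPR1, a stress-induced chromatin protein, had 464, 1187 and 903.5 (2.56-fold lower), and SLC3A2, the heavy chain of several amino acid transporters, had 933, 1885 and 2412 (2.02-fold lower). PPP1R15A (GADD34), which restores translation after stress, was the one higher, at 2800, 1213 and 404 (2.31-fold). Of 32 genes of the unfolded protein response HSPA5 alone was 2-fold apart (3.125%, beside 3.49% of all genes lower), and the median was −0.14.

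**Figure D4:**
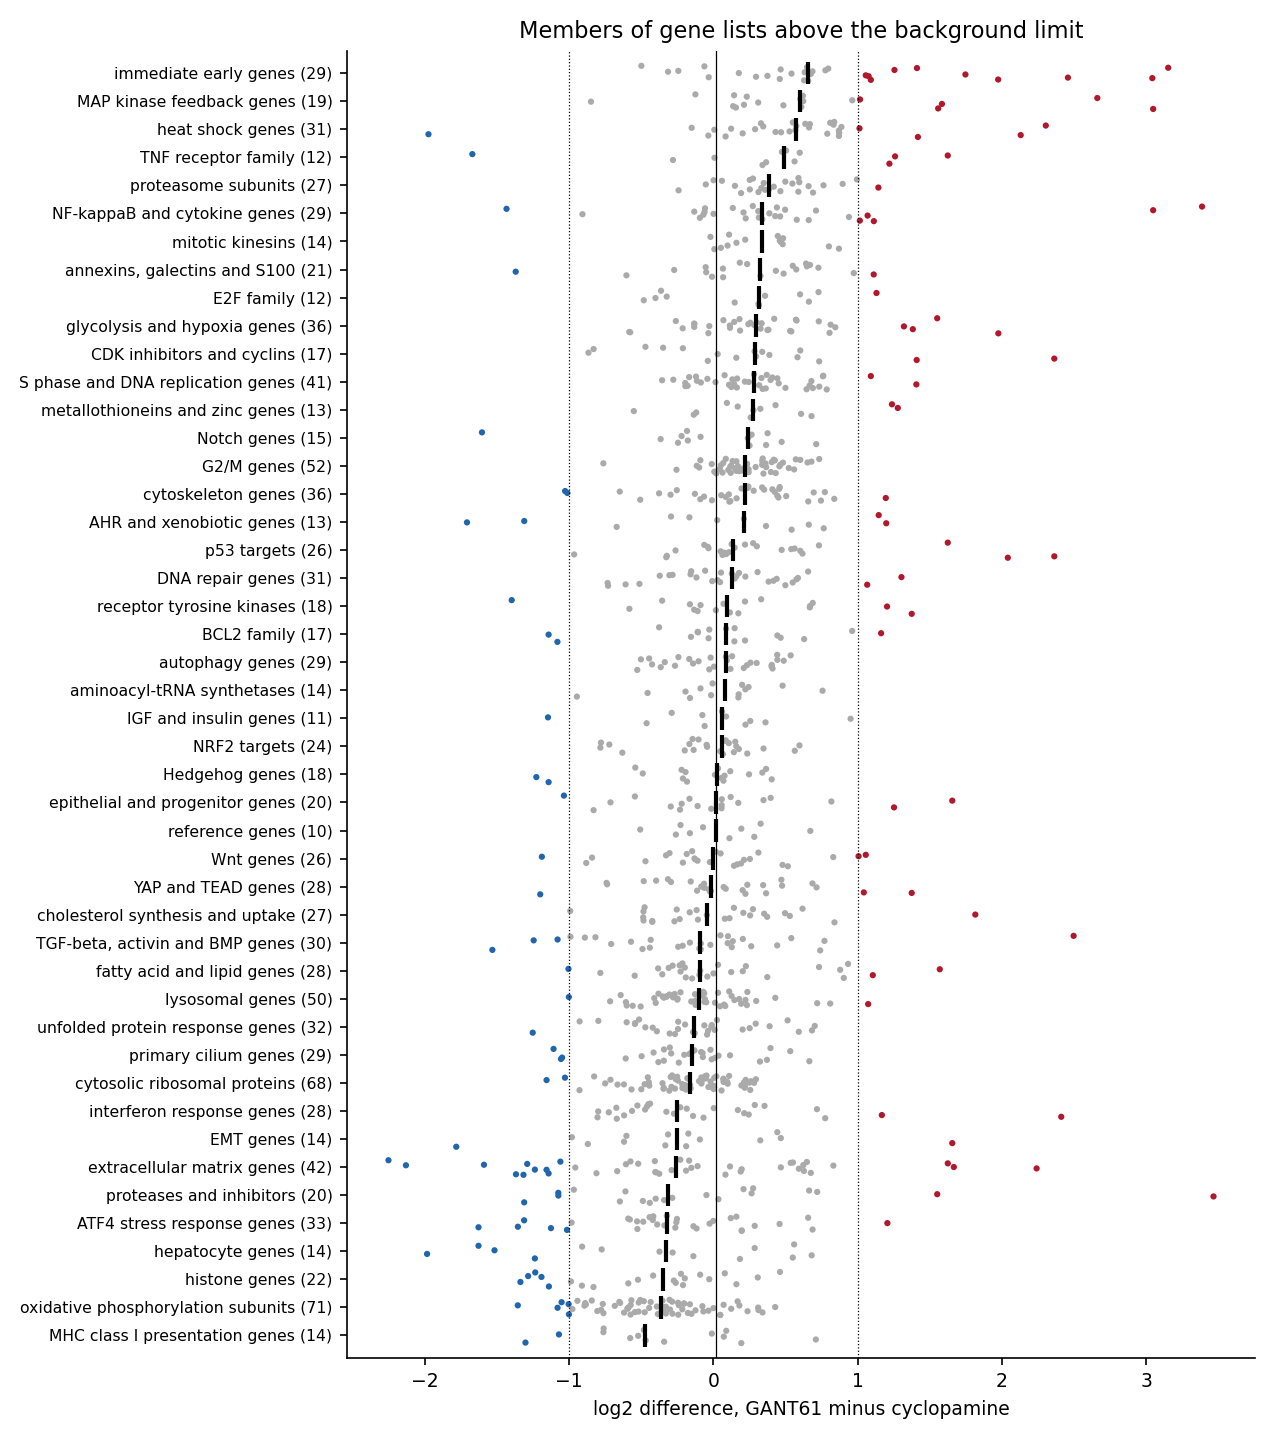
Each point is a gene above the limit, placed by its log2 difference GANT61 minus cyclopamine (horizontal axis) in its gene list (number of genes in brackets), for lists with at least 10 such genes. Red and blue mark genes at least 2-fold higher or lower with GANT61, black bars are list medians, and the thin line is the median of all genes, 0.02. Medians run between 0.66 for the immediate early genes and −0.47 for MHC class I presentation, whose median was −0.20 with no filter on dim probes.

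The largest lower difference was that of SORBS2, an adaptor of actin structures, which was under the limit with GANT61 at 41.65 and had 437.5 with cyclopamine and 331 with DMSO, at least 6.86-fold lower. A further probe gave 45.6, 309 and 193. TNNC1, the troponin C of slow and cardiac muscle, had 84.5, 564 and 409 (6.675-fold lower), and ACTA2, the smooth muscle actin, had 210, 723 and 290 (3.44-fold lower). PPP2R2B, a regulatory subunit of protein phosphatase 2A, had 225 with GANT61, 1407 with cyclopamine and 1530 with DMSO (6.265-fold lower); of its other probes one gave 53.8, 208 and 181 and another gave no difference between the compounds, at 252 and 259. TSHZ2, a zinc finger transcription factor, had 75.7, 409 and 656 (5.41-fold lower), and PDE7B, which degrades cAMP, had 66.6, 355.5 and 388 (5.34-fold lower). Among these genes DMSO lay within 1.5-fold of cyclopamine or above it, except for ACTA2.

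GPNMB, a transmembrane glycoprotein of melanosomes and lysosomes, had 237 with GANT61, 1119 with cyclopamine and 443 with DMSO (4.72-fold lower with GANT61), and its other probe gave 156, 563 and 255. IGSF5, a junction protein of the immunoglobulin family, had 87.4, 438 and 197 (5.01-fold lower), and PIEZO2, a mechanically gated ion channel, had 123, 531.5 and 255 (4.34-fold lower). For these genes cyclopamine was the highest of the 3 arrays and GANT61 the lowest. PTP4A1, a small protein phosphatase, had 300, 1341 and 821 (4.48-fold lower), with its other probe at 127, 348 and 156. PXMP2, a channel of the peroxisomal membrane, had 292, 1359 and 1031 (4.65-fold lower), with a further probe at 99.9, 280 and 306. USH1C (harmonin), a scaffold of microvilli, was under the limit with GANT61 at 50.2 and had 254 with cyclopamine and 535.5 with DMSO, at least 3.98-fold lower.

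Of 42 genes of the extracellular matrix above the limit, 10 (23.8%) were at least 2-fold lower with GANT61 and 3 were higher, and the median was −0.26. The 17 genes of collagens and their assembly had 6 lower, 0 higher and a median of −0.57, whereas the 9 integrins, the cell's receptors for matrix, had 2 higher, 0 lower and a median of 0.65. With signals under the limit raised to it, the medians were −0.57 for the collagen class and 0.20 for the integrins. COL5A1, a chain of fibrillar collagen V, had 421 with GANT61, 2004 with cyclopamine and 2104 with DMSO (4.76-fold lower with GANT61), and COL12A1 had 97.6, 428 and 235 (4.38-fold lower). The basement membrane chains COL4A1 and COL4A2, whose genes share 1 promoter region, had 893 and 112 with GANT61, 1971 and 273 with cyclopamine and 1588 and 412 with DMSO.

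Further matrix proteins were lower too. FBN2 (fibrillin-2) had 313 with GANT61, 944 with cyclopamine and 326 with DMSO (3.01-fold lower with GANT61), FBLN1 (fibulin-1) had 1051, 2712 and 1762 (2.58-fold), and AGRN (agrin) had 254, 632 and 1959 (2.49-fold). CCN5, a secreted matricellular protein, had 329, 1837 and 1755 (5.59-fold lower), and EFEMP1 (fibulin-3) had 160, 690 and 564 (4.31-fold lower). On the higher side were ECM1, at 333.5, 70.6 and 93.0 (4.73-fold higher), with its other probe at 154, 56.7 and 79.9, and the collagen receptor subunit ITGA2, at 712, 224 and 273 (3.18-fold higher). ITGA5, the fibronectin receptor subunit, had 312.5, 101 and 126 (3.085-fold higher). CD44, the receptor of hyaluronan, had 6523, 2069 and 2060 (3.15-fold higher), and its other probes above the limit gave 166, 66.7 and 60.1 and 458, 221 and 301. All these matrix receptor genes were highest on the GANT61 array.

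In the list of proteases and their inhibitors, SERPINE2 and PLAUR, the urokinase receptor, were at least 2-fold higher with GANT61. The list leaves out other such genes, among them the trypsin inhibitor SPINK1, which was higher, and the carboxypeptidase CPQ, which was lower. PLAUR had 559 with GANT61, 191 with cyclopamine and 261 with DMSO (2.93-fold), and its other probes gave 599.5, 170 and 115 and 261, 116 and 128. The protease inhibitors SERPINI1, SLPI and CST3 (cystatin C) were 2.48-fold, 2.11-fold and 2.11-fold lower, CST3 at 626.5, 1319 and 2614. Of the 11 inhibitors of the list above the limit, 8 were lower with GANT61 by some amount.

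CPS1, the enzyme that starts the urea cycle, had 1451 with GANT61, 5742 with cyclopamine and 9060 with DMSO, 3.96-fold lower with GANT61 than with cyclopamine. ASS1, the first cytosolic enzyme of that cycle, had 4000, 12360 and 15730 (3.09-fold lower), and a further probe gave 3551, 10510 and 17300, while another gave 63.1, 72.7 and 55.3. Both genes were ordered DMSO, cyclopamine, GANT61 from high to low. HPD, an enzyme of tyrosine breakdown, was under the limit with GANT61 at 54.6 and had 156 with cyclopamine and 429 with DMSO, at least 2.45-fold lower. These are 3 of the 14 hepatocyte genes above the limit, of 54 with a named probe. By their signals 4 of the 14 (28.6%, beside 3.49% of all genes) were at least 2-fold lower and 0 higher. The fourth was VTN, at 34.0 (under the limit) with GANT61, 80.1 with cyclopamine and 169 with DMSO, a bound of only 1.26-fold. The 5 transcription factors of that list had 0 genes 2-fold apart and a median of 0.29.

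Of 71 subunits of oxidative phosphorylation, 59 were lower with GANT61, 5 of them (7.04% of the 71) at least 2-fold. None was 2-fold higher and the median was −0.36. NDUFA7 of complex I had 489 with GANT61, 1250 with cyclopamine and 559 with DMSO (2.56-fold lower with GANT61), and COX8A of complex IV had 2505, 5194 and 6889 (2.07-fold lower). The medians were −0.43 for complex I, −0.35 for complexes II to IV and −0.48 for complex V. Of glycolysis and hypoxia genes 27 of 36 were higher, 4 of them at least 2-fold, with a median of 0.29. ADM (adrenomedullin), a vasoactive peptide induced by hypoxia, had 6959, 1769 and 1355 (3.93-fold higher). NDRG1, a hypoxia-induced gene, and HK1 (hexokinase-1), which starts glycolysis, had 2915 and 2934 with GANT61, 994 and 1125 with cyclopamine and 3282 and 2972 with DMSO, so that cyclopamine was the low array for both.

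In lipid genes NPC1, the lysosomal exporter of cholesterol, had 2042 with GANT61, 580 with cyclopamine and 745 with DMSO (3.52-fold higher with GANT61), and was the one gene 2-fold apart among 27 of cholesterol synthesis and uptake, whose median was −0.05. PLIN2, a coat protein of lipid droplets, had 561, 189 and 134 (2.97-fold), and PLIN3 had 8640, 4015 and 3899 (2.15-fold). Of 28 YAP and TEAD genes 2 (7.14%) were at least 2-fold higher and 1 (3.57%) was lower, with a median of −0.02. AXL, a receptor tyrosine kinase, had 2370, 914 and 709 (2.59-fold), and its other probe gave 1059, 559 and 735. NT5E had 342, 166 and 192 (2.06-fold), and AJUBA was lower at 127, 291.5 and 265.5 (2.30-fold). Of 18 receptor tyrosine kinases and ligands, AXL and EPHA2, at 281, 122 and 174 (2.30-fold), were higher. VEGFB, a ligand of VEGF receptor 1, was lower at 2091, 5509 and 1798 (2.635-fold), and the median of that list was 0.09. In the Notch list HES4, a transcriptional repressor, was the one gene 2-fold apart, at 3768 with GANT61, 11450 with cyclopamine and 3691 with DMSO (3.04-fold lower). ALPL, the alkaline phosphatase of liver and bone, was also highest with cyclopamine, at 4313, 13380 and 6900.

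Further signaling genes were 2-fold apart one by one. In the TGF-β, activin and BMP list of 30 genes, whose median was −0.09, FST was higher and ID2, ID3 and BMPR2 were lower. ID2, an inhibitor of helix-loop-helix factors and a BMP target, had 156 with GANT61, 451 with cyclopamine and 226 with DMSO (2.89-fold lower with GANT61), with its other probe at 135, 359 and 170.5, and ID3 had 298, 707 and 1287 (2.37-fold lower). Among 26 Wnt genes AXIN2, a feedback target of the pathway, had 128, 292 and 325 (2.28-fold lower), while GSK3B, a kinase that marks β-catenin for destruction, had 1624, 808 and 874 (2.01-fold higher). In the BCL2 family of 17 genes BID, which links death receptors to mitochondria, had 957, 427 and 370 (2.24-fold higher), with a further probe at 387, 192 and 182. BAD had 149, 315 and 344 (2.115-fold lower), but a further probe differed little, at 55.8 (under the limit), 67.0 and 54.8. BCL2, given above with the Hh genes, was also 2-fold lower. Of 13 AHR and xenobiotic genes, ALDH3A1, an aldehyde dehydrogenase, had 104, 338 and 387 (3.27-fold lower) and GSTP1, a glutathione transferase, had 7171, 17790 and 11480 (2.48-fold lower), while TIPARP, a feedback gene of the aryl hydrocarbon receptor, had 2799, 1220 and 1101 (2.295-fold higher). Each of these lists held genes of both directions.

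CD68, a lysosomal glycoprotein abundant in macrophages, was the one immune marker above the limit, at 1032 with GANT61, 509 with cyclopamine and 238 with DMSO by its brightest probe (2.03-fold higher with GANT61). Its further probes gave 1679, 132.5 and 85.4 and 79.9, 43.95 and 45.4, so the size of the difference depends on the probe. MHC class I presentation genes had a median of −0.47, which ran between −0.50 and −0.20 over the alternative settings. Of 14 above the limit 2 (14.3%) were at least 2-fold lower, TAPBP (tapasin), at 320, 790 and 1063, and PSMB8, an immunoproteasome subunit, at 689, 1446 and 1642. Of 68 cytosolic ribosomal proteins RPL36 and RPS26 were 2-fold lower (2.94%, beside 3.49% of all genes) and the median was −0.16. The other RPS26 probe gave 122 with GANT61 and 118 with cyclopamine. Of 10 reference genes 0 were 2-fold apart and the median was 0.02.

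Other probes of the same genes, which did not choose them, gave a check on single probes within the same RNA. Of 99 further probes above the limit in 79 genes higher with GANT61, 94 (94.95%) were higher and 33 (33.3%) at least 2-fold higher, with a median of 0.86. Of 121 further probes in 101 genes lower with GANT61, 114 (94.2%) were lower and 51 (42.15%) at least 2-fold lower, with a median of −0.93. Over all 3207 further probes 51.6% were higher and 2.53% at least 2-fold higher, and 48.4% were lower and 2.93% at least 2-fold lower. A further probe entered if it was above the limit on either treated array. Some therefore entered only through the array on which their gene was high, such as a CD68 probe at 79.9 with GANT61 and 43.95 with cyclopamine. For these the filter itself favours the same direction, and the shares without them were not worked out. A probe that lay against its gene was found for ABLIM1, DIDO1, FOXN3, GOLIM4, MAGED2, RPS26 and SLCO3A1 among the lower genes and for FUT4, LGALS8, NR2C2, NSD3 and VWA8 among the higher genes, and these further probes had signals of 44.2 to 196 on the treated arrays. The SD of a single probe's log2 difference, estimated from the spread between probes of a gene, was 0.16 in the brightest of 5 classes of pairs and 0.29 in the dimmest. It covers probes on these arrays and not cultures.

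**Figure D5:**
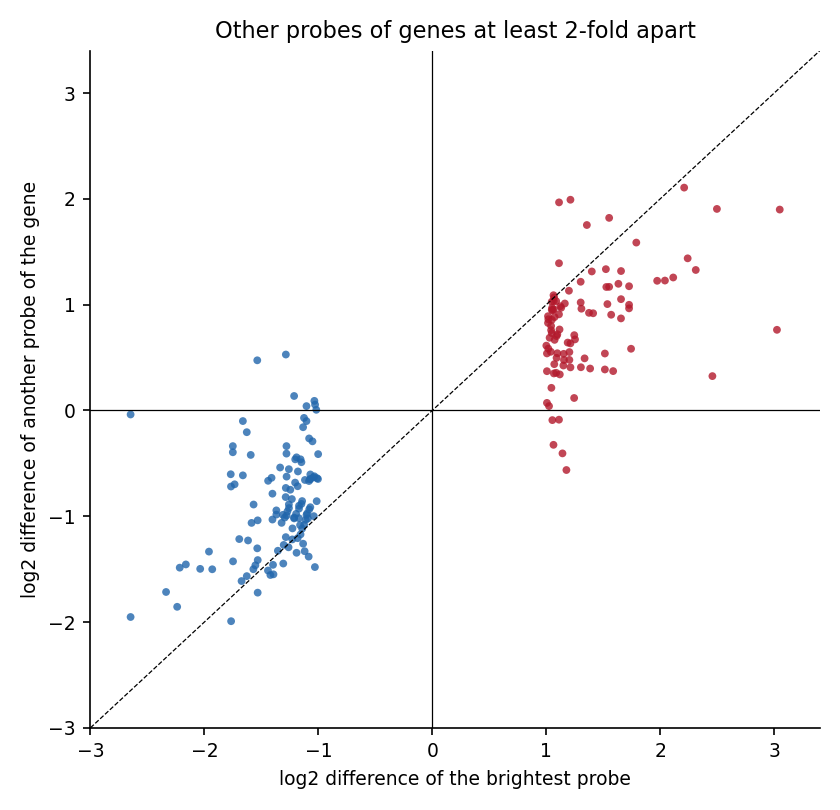
Each point is a further probe of a gene at least 2-fold higher (red) or lower (blue) with GANT61. The horizontal axis is the log2 difference GANT61 minus cyclopamine of the brightest probe, the vertical axis that of the further probe, and the dashed line marks equal values. Of the red points 94 of 99 lie above 0, and of the blue points 114 of 121 lie below 0, mostly nearer to 0 than the dashed line.

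Long noncoding RNAs had a larger share of genes lower with GANT61 than protein-coding genes on these arrays, a difference that was not tested. Of 157 lncRNAs above the limit, 15 (9.55%) were at least 2-fold lower and 1 was higher, with a median of −0.37, whereas of 9680 protein-coding genes 337 (3.48%) were lower and 240 (2.48%) higher, with a median of 0.02. SNHG8, which hosts a small nucleolar RNA in an intron, had 892 with GANT61, 1964 with cyclopamine and 1176 with DMSO (2.20-fold lower), and SNHG9, another host gene, had 323, 1032 and 737 (3.20-fold lower). MIR100HG, the host of a microRNA cluster, had 108, 313 and 264 (2.90-fold lower). Among 91 small nucleolar RNAs 1 was 2-fold higher, 0 were lower and the median was 0.17. Mature small nucleolar RNAs also lack a poly(A) tail, so these values are uncertain. SNHG8, SNHG9 and MIR100HG were chosen after their values were seen. When protein-coding genes were put in 5 classes of equal size by the length of the gene, the share at least 2-fold lower with GANT61 was 4.60%, 2.69%, 1.96%, 2.53% and 5.63% in order of length, and the share at least 2-fold higher was 3.25%, 1.55%, 2.53%, 2.94% and 2.12%. The lower genes were thus most frequent among the shortest and the longest genes.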

How the data were processed

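RNA of HCC-LM3 cells treated with GANT61, cyclopamine or DMSO was measured on 1 array per condition, and arrays were assigned by their labels. The deposited values are signal intensities of 47319 probes, on a linear scale and already normalized between arrays by the authors, as the near-identical sorted values show. The software behind them is not named in the sources at hand. A further deposited table with 6 columns of values was not used, since its headings match no sample. By the platform annotation 30110 probes have 1 gene symbol, 8 have several and 17201 are unnamed here, and 30071 matched the RefSeq genes of GRCh38.p14. A gene is represented by the probe whose mean log2 signal over the treated arrays is highest. A dim value has only a bound, the ratio of the brighter signal to the limit of 63.75. No test was made.

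Named genes are the 20 largest differences in each direction, up to 8 members per gene list at least 2-fold apart (or 3 members with the largest difference), and the genes the study names. CD68 probes, KRT18, CDKN1B, MDM2, BAX, DUSP16, COL4A1, GLI3, CCND1, ALPL and the other genes outside this rule were chosen after their values were seen. Members and lists were chosen with earlier results of these data known. Of 10 promoter motifs, each was searched on both strands. The steps, run in R 4.3.3 (limma 3.58.1) and Python 3.11.15 (pandas 2.3.3, numpy 2.4.6), were tested on simulated data, and figures were drawn with matplotlib 3.10.9. Alternatives were normexp with an offset of 50, background subtraction, the mean of all probes, other limits and thresholds, and other scalings.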

Additional observations from a re-analysis of the deposited data

How the results depend on the processing

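The 245 genes higher and 354 lower with GANT61 became 430 and 565 with the most common intensity less 16 subtracted, 1085 and 1145 at a 1.5-fold threshold, and 56 and 69 at a 3-fold threshold. Under the other alternatives both counts stayed within 1.5 times, for example 180 and 281 when a gene's probes were averaged, 191 and 278 with normexp and quantile normalization, 223 and 374 after scaling by reference genes, and 326 and 448 counted by probe. The median of the hepatocyte genes turned to 0.0231 when genes had to be above the limit on both treated arrays, which leaves out HPD, VTN, APOM and C3. With no filter on dim probes the medians of 6 lists moved, to −0.02 for the hepatocyte genes (−0.11 when probes were averaged), 0.02 for the EGF family, −0.01 for proteases and inhibitors, 0.25 for the TNF receptor family, −0.20 for MHC class I presentation genes and 0.07 for annexins, galectins and S100. Of 148 named genes at least 2-fold apart, 28 were under 2-fold when probes were averaged and 21 with normexp, and 0 changed direction. The share of further probes that went the way of their gene, under background and scaling choices made after seeing the data, was 91.7% to 97.3% for higher and 93.9% to 95.4% for lower genes. No paired analysis was possible because each condition has 1 array. The number of arrays limits the precision, and signals near 63.75 are compressed by background.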
